A study of Mus musculus with 8 samples.

Results

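RNF8 is a ubiquitin ligase of the DNA damage response, and the 10 genes described here encode RNF8 and the factors that act with it: *Rnf8*, *Rnf168*, *Mdc1*, *H2afx*, *Brca1*, *Atr*, *Atm*, *Topbp1*, *Ube2b* and *Ube2n*. They were chosen by name, from the known pathway, and all 10 were found among the 23343 genes of the RNA-seq tables. RNA was sequenced from spermatocytes at the pachytene stage of meiosis (PS) and from round spermatids (RS), the haploid cells that follow, of *Rnf8;Scml2*-dKO mice, in which *Rnf8* and the Polycomb gene *Scml2* are both knocked out. Acetylation of histone H3 at lysine 27 (H3K27ac), a mark of active promoters and enhancers, was profiled by ChIP-seq in the same stages from wild-type mice. All samples came from testes of adult C57BL/6 mice, and each of the 4 groups had 2 replicates, 8 samples in all. PS and RS were separated by sedimentation in a gradient of bovine serum albumin, and for the dKO this was done on a small scale that yielded both PS and RS from the testes of 1 mouse. The study calls the replicates biological, but its sources do not tie the replicate numbers to mice, so which PS and RS libraries share a mouse is not stated. With 2 samples against 2 an exact permutation test of a single value cannot go below 0.333, so the tests below are fits across all genes. Since RNA was measured in the dKO and H3K27ac in wild-type, no value here compares the genotypes, and RNA and H3K27ac of a gene come from different mice.

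At a DNA break, and on the unsynapsed X and Y chromosomes of a spermatocyte, the kinases ATM and ATR phosphorylate the histone variant H2AX. In spermatocytes ATR, with its activator TOPBP1 and with BRCA1 on the chromosome axes, does this on the sex chromosomes, and MDC1 binds the phosphorylated H2AX and spreads the signal over the chromosome. MDC1 recruits RNF8, which works with ubiquitin-conjugating enzymes such as UBE2N and UBE2B, and RNF168 extends the ubiquitin marks at somatic breaks. In round spermatids meiosis is over, and the X or the Y remains largely silent with a set of genes that escape.

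The promoters of the genes on which the results turn are shown first, from RefSeq on GRCm38.p6, the assembly that mm10 names, each from 250 bases before to 50 bases after the annotated start. With H3K27ac taken relative to the median gene, *Mdc1* and *Rnf8* were lower in RS in both RNA and H3K27ac, *Brca1* and *Ube2n* were higher in both, and *Rnf168* was lower in RNA and higher in H3K27ac. Without that scaling *Brca1*, *Ube2n* and *Rnf168* were not called in H3K27ac. The *Brca1* peak also covers the start of *Nbr1*, a neighbor on the other strand, so its H3K27ac value is shared by both genes. Capitals mark matches, on either strand, to the motifs named after the sequences. The windows are chr17:35841248-35841547 (plus strand) for *Mdc1*, chr17:29614539-29614838 (plus strand) for *Rnf8*, chr11:101551906-101552205 (minus strand) for *Brca1*, chr10:95514912-95515211 (plus strand) for *Ube2n* and chr16:32277211-32277510 (plus strand) for *Rnf168*.
Mdc1: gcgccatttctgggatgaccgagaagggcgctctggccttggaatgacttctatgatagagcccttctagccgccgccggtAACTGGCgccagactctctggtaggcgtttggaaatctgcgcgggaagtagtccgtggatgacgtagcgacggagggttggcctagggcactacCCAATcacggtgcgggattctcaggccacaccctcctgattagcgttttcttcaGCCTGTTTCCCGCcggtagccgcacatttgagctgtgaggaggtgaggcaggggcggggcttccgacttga
Rnf8: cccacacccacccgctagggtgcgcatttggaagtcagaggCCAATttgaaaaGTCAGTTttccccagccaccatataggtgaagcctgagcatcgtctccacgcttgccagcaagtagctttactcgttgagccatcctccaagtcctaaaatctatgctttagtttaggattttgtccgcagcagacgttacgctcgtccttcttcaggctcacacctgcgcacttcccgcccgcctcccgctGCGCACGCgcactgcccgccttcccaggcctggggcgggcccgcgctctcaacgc
Brca1: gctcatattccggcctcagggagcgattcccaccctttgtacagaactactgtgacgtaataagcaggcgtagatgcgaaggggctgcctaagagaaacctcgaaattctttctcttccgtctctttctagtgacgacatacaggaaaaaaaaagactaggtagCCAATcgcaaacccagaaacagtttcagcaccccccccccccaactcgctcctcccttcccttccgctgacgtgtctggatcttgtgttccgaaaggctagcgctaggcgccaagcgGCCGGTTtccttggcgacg
Ube2n: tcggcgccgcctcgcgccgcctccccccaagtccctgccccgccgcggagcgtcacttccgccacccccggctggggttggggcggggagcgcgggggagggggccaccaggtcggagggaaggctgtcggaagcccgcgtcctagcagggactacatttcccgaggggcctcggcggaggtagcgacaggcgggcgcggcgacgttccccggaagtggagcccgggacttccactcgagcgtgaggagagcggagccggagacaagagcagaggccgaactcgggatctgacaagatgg
Rnf168: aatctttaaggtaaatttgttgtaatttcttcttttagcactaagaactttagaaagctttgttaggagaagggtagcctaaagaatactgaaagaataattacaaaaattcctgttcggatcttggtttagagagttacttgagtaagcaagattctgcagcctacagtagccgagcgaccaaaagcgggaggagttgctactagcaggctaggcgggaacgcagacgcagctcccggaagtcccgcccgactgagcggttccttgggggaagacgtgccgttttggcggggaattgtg

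The promoter table matched 9 of the 10 genes, with 10 windows, since *Ube2b* has a pair of starts, and *H2afx* had no entry. Every one of the 10 windows lay inside an H3K27ac peak in all 4 ChIP-seq libraries, though the share of all windows was not counted. They held 12 to 38 CG pairs each, where the median of all 32851 windows was 7, and their GC content ran from 46.3% in *Rnf168* to 73.7% in *Topbp1*, beside a median of 52.7%. Motifs were searched on both strands by their letters alone. Positions count from each window's own annotated start, which for *Rnf8* and *Ube2b* lies upstream of the start used for the peaks. The NRF1 motif GCNTGCGC was found in 2 of the 10 windows, in *Rnf8* from -5 to 2 and at 3 positions in *Atm*, and in 9.95% of all windows. An E2F motif (TTTCCCGC, TTTGGCGC or TTTCGCGC) was found in *Mdc1* from -16 to -9 and in *Topbp1*, 2 windows, and in 1.84% of all windows. CCAAT was found in 4 windows (*Mdc1* from -75 to -71, *Rnf8*, *Brca1* and *Atm*) and in 37.4% of all windows. The MYB motif AACNGNC was found in 5 windows, with 2 matches in *Mdc1*, 1 of which shares bases with the E2F match, and in 32.8% of all windows. The CRE motif TGACGTCA was found in 1 of the *Ube2b* windows and in 1.79% of all windows. No motif matched in *Ube2n*, *Rnf168* or *Atr*. These are matches of letters and not measured binding.

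The RNA libraries had 9655405 to 12289694 reads on genes, and the ChIP-seq libraries 41095 to 74919 peaks. Known markers were compared with the labels. All 9 markers of round spermatids, such as the protamine genes, were higher in RS, and their summed RPKM (reads divided by the length of the transcript and by the size of the library) was 556 and 933 in PS and 14853 and 15731 in RS. Of 8 markers of pachytene spermatocytes, 5 were lower in RS and 0 higher, with summed RPKM of 919 and 859 in PS and 378 and 428 in RS. Markers of Leydig cells, the testosterone-producing cells between the tubules, went with the stage: 5 of 5 were lower in RS and none was at 0. Their summed RPKM was 727 and 546 in PS and 68.0 and 42.4 in RS, most of it from *Insl3* with 593 and 450 in PS and 60.0 and 35.8 in RS. Of the other lists, 3 of 6 spermatogonial markers were higher in RS (summed RPKM 26.0 to 38.3 in PS, 44.6 to 49.6 in RS), 2 of 5 Sertoli cell markers were higher (28.2 to 60.5 and 17.8 to 31.5), and 0 of 3 peritubular markers changed (2.0 to 3.0 and 2.75 to 3.22). In the blood list 3 of 5 were higher (0.544 to 0.786 in PS, 5.18 to 5.88 in RS), with the globin genes *Hbb-b1* and *Hba-a1* listed at 0 in every library. The part of any of these cells in the changes of the 10 genes was not tested, and in bulk RNA fewer cells of a type and less RNA per cell cannot be told apart.

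The genes targeted by the knockout come first. *Rnf8* (NM_021419, chr17:29614831-29641659 of mm10, plus strand) had 93 and 110 reads in PS replicates 1 and 2 and 61 and 50 reads in RS replicates 1 and 2. This corresponds to 4.02 and 4.88 RPKM in PS and 2.15 and 2.09 in RS, so RNA of the locus was present in all 4 dKO libraries. The tables count reads per gene and not per exon, and the wild-type RNA was not analysed here, so the reads do not show which part of *Rnf8* was transcribed. The level was 2.04-fold lower in RS (log2 change -1.03 ± 0.25 SE, edgeR adjusted p = 0.00660), and PS and RS did not overlap. This call rests on few reads. Without RS replicate 1 the adjusted p was 0.0708, and without RS replicate 2 it was 0.0848. *Scml2* (NM_133194), on the X, had 40 and 92 reads in PS and 44 and 98 in RS, and the RPKM was 0.724 and 1.71 in PS and 0.649 and 1.72 in RS. Here the libraries of replicate 2 were high and those of replicate 1 low in both stages, the stages overlapped, and the log2 change was -0.02 ± 0.51 (edgeR adjusted p = 0.971).

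Across the 10 genes, RNA was lower in RS for 6 (*Mdc1*, *Topbp1*, *Atr*, *H2afx*, *Rnf168* and *Rnf8*), higher for 2 (*Ube2n* and *Brca1*) and not called for 2 (*Atm* and *Ube2b*). A gene was called with an adjusted p under 0.05 and a change of at least 1.5-fold, and all 10 genes passed the filter on low counts. Of the 14647 genes tested, 58.0% were called, 27.6% lower and 30.4% higher, so most genes of the germ cells differed between these stages and a call by itself is common. The median log2 change was -1.04 over the 10 genes and 0.01 over all genes tested. PS and RS did not overlap in RPKM for any of the 10 genes but *Ube2b*. The share of all genes tested without overlap was not counted, so it is not known whether this separation sets the 10 genes apart. For a single gene, an exact permutation test of 2 against 2 cannot go below 0.333. The Leydig cell markers and 5 of the 8 markers of pachytene spermatocytes given above were also lower in RS. The part of either cell type in the changes of the 6 genes called lower was not tested.

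**Figure D1:**
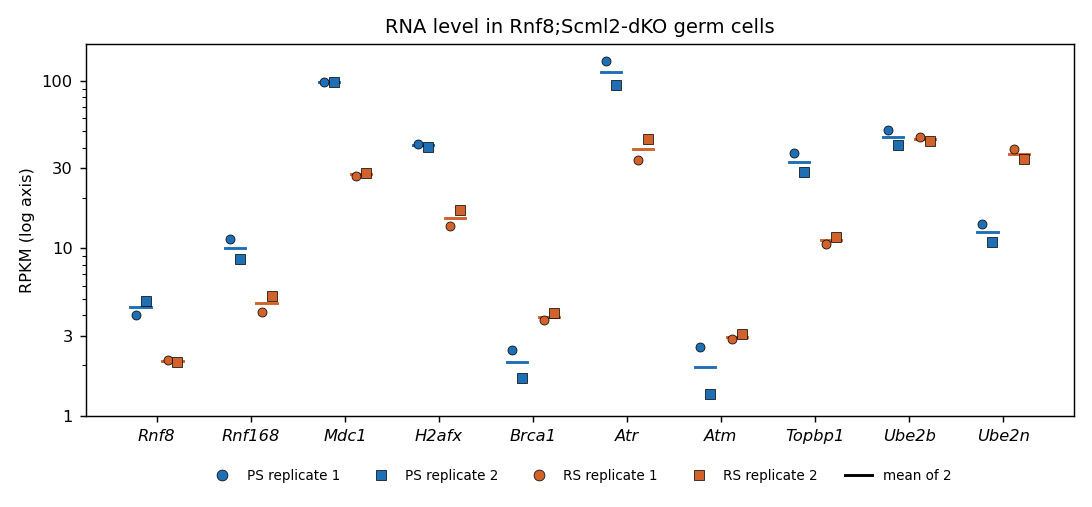
RNA level of the 10 genes in dKO germ cells, in RPKM on a log axis, with 1 point per library (circles replicate 1, squares replicate 2) and a line at the mean of 2 replicates, PS in blue and RS in orange. Mdc1 falls from 98.4 RPKM in both PS libraries to 27.2 and 28.1 in RS, Ube2n rises above its PS values, and the points of Ube2b overlap.

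The kinase branch was dominated by *Atr*. *Atr* (NM_019864, chr9:95857597-95951644, plus strand), the kinase that silences the unsynapsed sex chromosomes, had 132 and 94.5 RPKM in PS and 33.7 and 44.7 in RS. Both PS libraries were above both RS libraries, and the level fell 2.80-fold (log2 change -1.49 ± 0.18, edgeR adjusted p = 1.57e-04). *Topbp1* (NM_176979, chr9:103305327-103350427, plus strand), which activates ATR, had 37.1 and 28.6 RPKM in PS and 10.7 and 11.7 in RS. It fell 2.85-fold (log2 change -1.51 ± 0.15, edgeR adjusted p = 5.03e-05). The ratio of *Atr* to *Topbp1* RPKM was 3.56 and 3.30 in PS and 3.15 and 3.84 in RS, so the ratio overlapped between the stages while both genes fell. *Atm* (NM_007499, chr9:53437122-53536671, minus strand), the kinase that responds first to double-strand breaks, was low throughout, with 2.57 and 1.35 RPKM in PS and 2.86 and 3.07 in RS. Its reads were 350 and 179 in PS and 479 and 432 in RS, so the PS replicates lay further apart than the RS replicates. The log2 change of *Atm* was 0.64 ± 0.26 (95% interval 0.05 to 1.24), which missed the threshold (edgeR adjusted p = 0.0572). It passed without PS replicate 1, with a log2 change of 1.13 (edgeR adjusted p = 2.31e-04), with the replicate number as a block (log2 change 0.69, edgeR adjusted p = 0.0170), with DESeq2 and with no filter on low counts. *Atr* RPKM exceeded *Atm* RPKM 51.4 and 70.1 times in PS and 11.8 and 14.6 times in RS.

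The histone and its reader fell together. *H2afx* (NM_010436, chr9:44334715-44336073, plus strand), which encodes H2AX, had 42.2 and 40.4 RPKM in PS and 13.6 and 17 in RS. The level was 2.63-fold lower in RS (log2 change -1.40 ± 0.17, edgeR adjusted p = 1.37e-04). The libraries are labelled polyA RNA, while the paper describes amplified total RNA and names no poly(A) selection. *H2afx* also makes a transcript without a poly(A) tail, and whether these libraries hold it is not known. *Mdc1* (NM_001010833, chr17:35841498-35859670, plus strand), the adaptor that binds phosphorylated H2AX, had 8241 and 8032 reads in PS and 2795 and 2430 in RS. In RPKM this was 98.4 and 98.4 in PS and 27.2 and 28.1 in RS, the smallest spread between replicates among the 10 genes in PS. It fell 3.46-fold (log2 change -1.79 ± 0.11, edgeR adjusted p = 5.64e-06), more than any other of the 10 in this fit. In both stages *Mdc1* RNA was far above that of its partner *Rnf8*, by 24.5 and 20.2 times in RPKM in PS and 12.7 and 13.4 times in RS.

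Among the ubiquitin ligases, *Rnf168* fell with *Rnf8*, and *Brca1* rose. *Rnf168* (NM_027355, chr16:32277461-32301439, plus strand), which acts after RNF8 at somatic breaks, had 11.3 and 8.69 RPKM in PS and 4.19 and 5.21 in RS. It fell 2.07-fold (log2 change -1.05 ± 0.19, edgeR adjusted p = 0.00136), a size close to that of *Rnf8*, and the ratio of *Rnf168* to *Rnf8* RPKM was 2.81 and 1.78 in PS and 1.95 and 2.49 in RS. *Brca1* (NM_009764, chr11:101488764-101551955, minus strand), the breast cancer protein that acts in homologous recombination and on the axes of the sex chromosomes, had 2.48 and 1.69 RPKM in PS and 3.72 and 4.11 in RS. It was 1.93-fold higher in RS (log2 change 0.95 ± 0.21, edgeR adjusted p = 0.00409). The reads behind *Brca1* were 188 and 125 in PS and 346 and 322 in RS, so a low level in spermatocytes, at the 34.6th percentile of the genes tested, moved to the 44.9th percentile in spermatids.

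The ubiquitin-conjugating enzymes differed from each other. *Ube2n* (NM_080560, chr10:95515162-95545658, plus strand), which builds ubiquitin chains linked through lysine 63, had 14 and 10.9 RPKM in PS and 39.4 and 34.1 in RS. Every RS library was above every PS library, and the level rose 3.04-fold (log2 change 1.6 ± 0.16, edgeR adjusted p = 4.69e-05). *Ube2b* (NM_009458, chr11:51985146-52000466, minus strand), a mouse counterpart of yeast Rad6 that male fertility depends on, had 50.7 and 41.4 RPKM in PS and 46.3 and 43.9 in RS. The RS values lay inside the range of the PS values. The log2 change was 0.01 ± 0.14, with a 95% interval from -0.30 to 0.33 (edgeR adjusted p = 0.939), and its sign turned in several settings. The ratio of *Ube2b* to *Ube2n* RPKM went from 3.62 and 3.79 in PS to 1.18 and 1.29 in RS.

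Since RPKM are scaled to transcript length, the genes can be ordered by level. In PS the order of mean RPKM was *Atr* (113 ± 26.6 SD, n = 2), *Mdc1* (98.4 ± 0.0044), *Ube2b* (46.1 ± 6.6), *H2afx* (41.3 ± 1.3), *Topbp1* (32.8 ± 6.0), *Ube2n* (12.5 ± 2.2), *Rnf168* (9.99 ± 1.85), *Rnf8* (4.45 ± 0.61), *Brca1* (2.09 ± 0.56) and *Atm* (1.96 ± 0.86). The neighbors *Atr* and *Mdc1*, *Ube2b* and *H2afx*, *Ube2n* and *Rnf168*, and *Brca1* and *Atm* overlapped between libraries, so their order is not resolved. In RS the order was *Ube2b* (45.1 ± 1.7), *Atr* (39.2 ± 7.8), *Ube2n* (36.7 ± 3.8), *Mdc1* (27.6 ± 0.63), *H2afx* (15.3 ± 2.4), *Topbp1* (11.2 ± 0.69), *Rnf168* (4.70 ± 0.72), *Brca1* (3.92 ± 0.28), *Atm* (2.96 ± 0.14) and *Rnf8* (2.12 ± 0.04). *Atr* overlapped both *Ube2b* and *Ube2n*, and the other neighbors did not overlap. *Mdc1* went from the 94.3rd to the 79.8th percentile of the genes tested, *Topbp1* from the 82.2nd to the 65.0th, and *Ube2n* from the 65.2nd to the 83.7th.

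**Figure D2:**
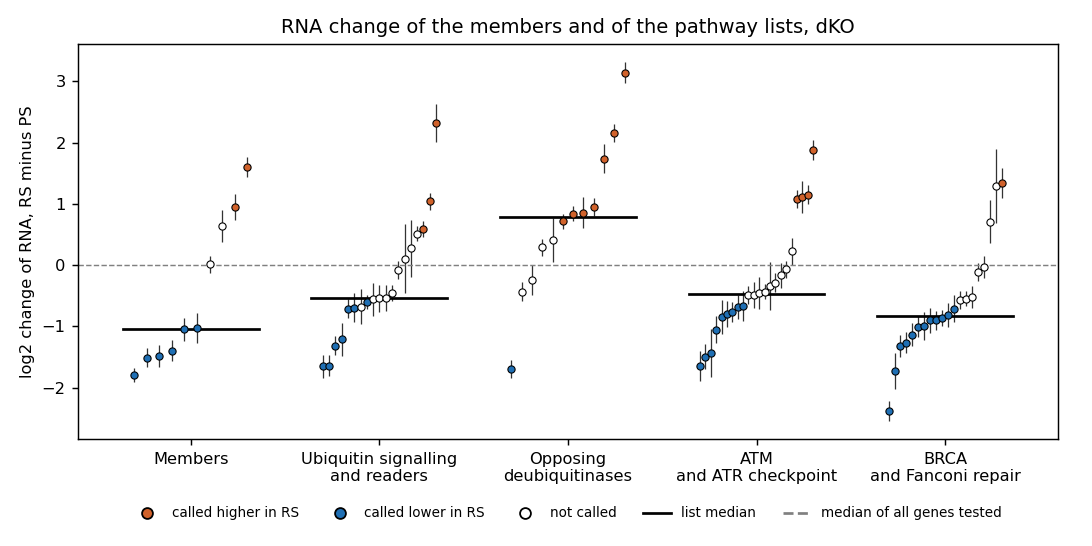
Log2 change of RNA from PS to RS in the dKO for each tested gene of the members and of 4 pathway lists, with bars of 1 SE, filled where called and open where not, a black line at each list's median and a dashed line at the median of all genes tested. The members center at -1.04 and BRCA and Fanconi repair at -0.84, while the opposing deubiquitinases center at 0.78.

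Around these genes, 4 lists of other pathway genes held 76 genes, of which 73 could be tested, with 15 higher in RS, 29 lower and 29 not called. This is 60.3% called, close to the 58.0% of all genes tested, of which 30.4% were higher and 27.6% lower. BRCA and Fanconi repair, the genes of homologous recombination and crosslink repair, had 1 higher, 12 lower and 7 not called of 20 tested, with a median log2 change of -0.84. *Fancg*, of the Fanconi core complex, had 56.8 and 65.5 RPKM in PS and 10.3 and 12.5 in RS (log2 change -2.39 ± 0.16, edgeR adjusted p = 7.19e-06). The recombination genes *Xrcc3* and *Xrcc2* fell, with log2 changes of -1.73 ± 0.29 and -1.32 ± 0.18 (edgeR adjusted p = 9.28e-04 and 3.42e-04). *Brip1*, the helicase that binds BRCA1, rose like *Brca1*, from 0.886 and 0.623 RPKM in PS to 2.02 and 1.69 in RS (log2 change 1.34 ± 0.25, edgeR adjusted p = 0.00166). Without either PS library 2 genes of this list were higher in place of 1.

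Ubiquitin signalling and readers had 3 higher, 7 lower and 9 not called of 19 tested, with a median of -0.54. Of this list 52.6% were called, beside 58.0% of all genes, 30.4% higher and 27.6% lower. *Bard1*, the obligate partner of BRCA1 in its ligase, had 4.77 and 5.16 RPKM in PS and 1.5 and 1.57 in RS, and so fell (log2 change -1.65 ± 0.19, edgeR adjusted p = 9.68e-05) where *Brca1* rose. *Rif1*, which acts with 53BP1 at breaks, and *Rad18*, a ligase that binds ubiquitin marks made by RNF8, fell, with log2 changes of -1.64 ± 0.17 and -1.32 ± 0.16 (edgeR adjusted p = 5.68e-05 and 1.32e-04). *Ube2a*, the X-linked paralog of *Ube2b*, had 1.06 and 1.41 RPKM in PS and 6.89 and 5.12 in RS, a log2 change of 2.32 ± 0.31 (edgeR adjusted p = 2.44e-04). The autosomal *Ube2b* was thus above *Ube2a* in every library in RPKM. The authors kept unique alignments, so reads shared between such close paralogs would be lost from both. *Paxip1*, which encodes the BRCT-domain adaptor PTIP, rose by a log2 change of 1.05 ± 0.14 (edgeR adjusted p = 2.57e-04). *Ube2d3*, another conjugating enzyme, rose by 0.59 ± 0.13 on the log2 scale (edgeR adjusted p = 0.00445), just past the 1.5-fold minimum, and it was under that minimum in 5 settings, with log2 changes of 0.53 to 0.58.

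Of 22 genes tested in the ATM and ATR checkpoint list, 59.1% were called, beside 58.0% of all genes, 30.4% higher and 27.6% lower. The list had 4 higher, 9 lower and 9 not called, with a median of -0.47. Without RS replicate 1 the count of lower genes was 4, and without RS replicate 2 it was 3. *Rad1* and *Rad9b*, members of the ring-shaped clamps that help TOPBP1 activate ATR, fell, with log2 changes of -1.65 ± 0.24 and -1.49 ± 0.21 (edgeR adjusted p = 4.68e-04 and 3.34e-04). *Hus1b*, a further clamp gene, had 34 and 25 reads in PS and 13 and 11 in RS (log2 change -1.44 ± 0.39, edgeR adjusted p = 0.0109). Its call did not hold without either RS library (edgeR adjusted p = 0.125 and 0.122) nor with DESeq2 (adjusted p = 0.0811). *Tipin*, of the replication fork protection complex, rose from 11.8 and 11.4 RPKM in PS to 43.0 and 39.6 in RS (log2 change 1.87 ± 0.16, edgeR adjusted p = 2.32e-05). *Wee1* and *Chek1*, kinases that hold back the cell cycle, rose by log2 changes of 1.15 ± 0.16 and 1.11 ± 0.26 (edgeR adjusted p = 2.76e-04 and 0.00569).

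The deubiquitinases that oppose RNF8 and RNF168, or remove ubiquitin from histones, are the last list. Of 12 tested, 7 were higher, 1 was lower and 4 were not called (66.7% called, beside 58.0% of all genes, 30.4% higher and 27.6% lower), with a median log2 change of 0.78. *Otub2*, which limits ubiquitin at breaks, had 13.1 and 17.5 RPKM in PS and 134 and 128 in RS (log2 change 3.15 ± 0.17, edgeR adjusted p = 3.79e-06). *Usp44*, which counteracts RNF168, had 18.4 and 22.8 RPKM in PS and 90.9 and 88.1 in RS (log2 change 2.16 ± 0.15, edgeR adjusted p = 8.60e-06). The X-linked *Usp26* rose from 1.85 and 1.18 RPKM to 5.21 and 4.6 (log2 change 1.74 ± 0.24, edgeR adjusted p = 3.41e-04). *Usp21* was the gene that fell, from 34.9 and 37.5 RPKM in PS to 10.6 and 11.2 in RS (log2 change -1.69 ± 0.15, edgeR adjusted p = 2.36e-05).

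In wild-type cells, a single H3K27ac peak covered the start site of each of the 10 genes in all 4 libraries. Of the 23343 genes, 8659 had a peak over the start in all 4 libraries. The value compared was the fold enrichment of the strongest peak within 2 kb of the start site, which is the pileup of fragments at its summit over the background of the same library. These summits held 18 to 108 fragments. The median fold enrichment over genes was 17.3 and 18.6 in PS and 15.5 and 11.6 in RS, which gives a median log2 difference of -0.42, so each library was centered on its median and differences are relative to the median gene. By this measure 4 of the 10 promoters were higher in RS (*Brca1*, *Ube2n*, *Rnf168* and *Ube2b*), 3 were lower (*Mdc1*, *Rnf8* and *H2afx*) and 3 were not called (*Atr*, *Topbp1* and *Atm*). Of the 11394 promoters tested, 43.6% were called at a limma adjusted p under 0.05, 22.8% higher and 20.8% lower. With the fold enrichment as deposited, 0 of the 10 were higher and 5 were lower, where 8.29% and 33.8% of all promoters were, and the 5 were *Mdc1*, *Rnf8*, *H2afx*, *Atr* and *Topbp1*.

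**Figure D3:**
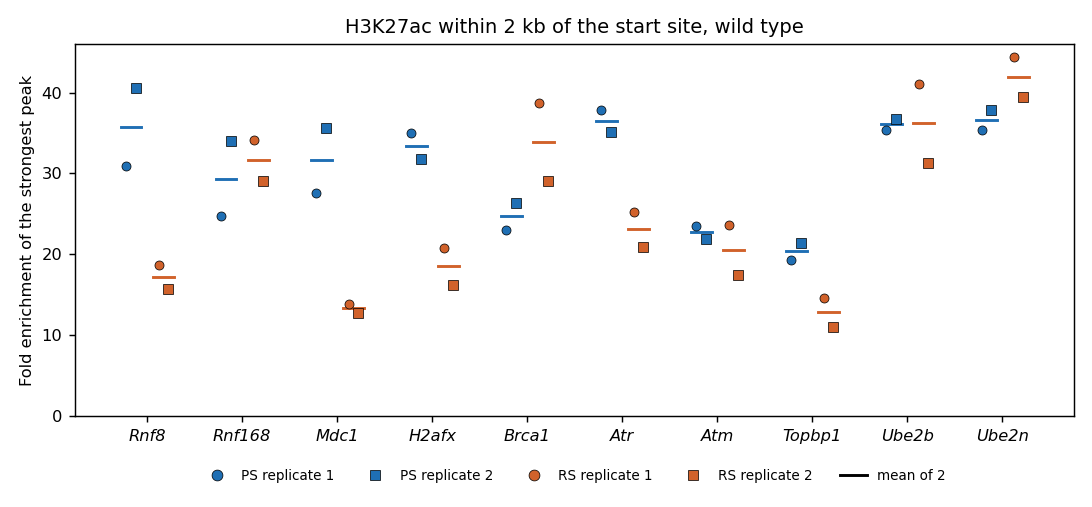
Fold enrichment of the strongest H3K27ac peak within 2 kb of the start site of each gene in wild-type cells, as deposited and not centered, with 1 point per library and a line at the mean of 2 replicates. At Mdc1, Rnf8, H2afx, Atr and Topbp1 both RS points lie below both PS points, and at Brca1 and Ube2n both lie above.

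The promoters of *Mdc1*, *Rnf8* and *H2afx* lost H3K27ac under both scalings. At *Mdc1* the fold enrichment was 27.6 and 35.6 in PS and 13.8 and 12.8 in RS, and the centered log2 difference was -0.82 ± 0.15 (limma adjusted p = 4.01e-05). At *Rnf8* it was 30.9 and 40.6 in PS and 18.7 and 15.7 in RS, a difference of -0.62 ± 0.14 (limma adjusted p = 5.67e-04). At *H2afx* it was 35.0 and 31.8 in PS and 20.7 and 16.3 in RS, a difference of -0.44 ± 0.14 (limma adjusted p = 0.0118). The call at *Rnf8* was lost without PS replicate 2 (limma adjusted p = 0.0687) and that at *H2afx* without PS replicate 1 (0.197), while *Mdc1* kept its call without any 1 library. At *Atr*, with 37.9 and 35.1 in PS and 25.2 and 20.9 in RS, the groups did not overlap, and the centered difference was -0.24 ± 0.14 (limma adjusted p = 0.157). As deposited it was -0.67 (adjusted p = 0.0108). *Topbp1* had the weakest promoter peak of the 10 in PS, 19.3 and 21.4, and 14.6 and 11 in RS, with a centered difference of -0.26 ± 0.16 (limma adjusted p = 0.197) and -0.68 as deposited (adjusted p = 0.0466).

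*Brca1* and *Ube2n* had more H3K27ac in both RS libraries than in either PS library, and the *Brca1* peak is shared with *Nbr1*. At *Brca1* the fold enrichment was 23.0 and 26.3 in PS and 38.7 and 29.0 in RS, with a centered log2 difference of 0.87 ± 0.14 (limma adjusted p = 2.84e-06), and 0.44 as deposited (adjusted p = 0.0999). At *Ube2n* it was 35.4 and 37.8 in PS and 44.3 and 39.5 in RS, with a difference of 0.62 ± 0.14 (limma adjusted p = 3.97e-04), and 0.19 as deposited (adjusted p = 0.419). The calls at *Rnf168* and *Ube2b* rest on the centering, since PS and RS overlapped in the deposited values. *Rnf168* had 24.7 and 34.0 in PS and 34.2 and 29.0 in RS, a centered difference of 0.54 ± 0.14 (limma adjusted p = 0.00229) and 0.12 as deposited (adjusted p = 0.681). *Ube2b* had 35.4 and 36.7 in PS and 41.1 and 31.3 in RS, a centered difference of 0.42 ± 0.13 (limma adjusted p = 0.0120) and -0.0065 as deposited (adjusted p = 0.984). Without PS replicate 1 only *Brca1* stayed called higher, with adjusted p of 0.187 for *Rnf168*, 0.120 for *Ube2b* and 0.0606 for *Ube2n*. Without PS replicate 2, *Ube2b* (0.176) and *Ube2n* (0.0660) were not called. *Atm*, with 23.5 and 21.9 in PS and 23.6 and 17.4 in RS, had a centered difference of 0.26 ± 0.15 (limma adjusted p = 0.149) and -0.16 as deposited (adjusted p = 0.638).

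Set side by side, the signs of RNA in the dKO and of centered H3K27ac in wild-type cells were the same for 5 of the 6 genes called in both. *Rnf8*, *Mdc1* and *H2afx* were lower in both and *Brca1* and *Ube2n* higher in both, while *Rnf168* was lower in RNA and higher in centered H3K27ac. The H3K27ac value of *Brca1* comes from the peak it shares with *Nbr1*. As deposited, 5 genes were called in both, *Rnf8*, *Mdc1*, *H2afx*, *Atr* and *Topbp1*, all lower in both, and *Brca1*, *Ube2n* and *Rnf168* had no call in H3K27ac. Of 3427 genes with lower RNA in RS, 30.0% had lower and 9.13% higher centered promoter H3K27ac. Of 2700 genes with higher RNA, 53.2% had higher and 7.93% lower H3K27ac. In counts, 1437 genes were higher in both and 1028 lower in both. Another 214 were higher in RNA and lower in centered H3K27ac, and 313 were the reverse. Most of all genes called in both thus had the same sign, so 5 of 6 does not set these genes apart. For H3K27ac as deposited, the matching counts over all genes were not made. *Atr* and *Topbp1* were lower in RNA without a call in centered H3K27ac, *Ube2b* was higher in H3K27ac without a call in RNA, and *Atm* had a call in neither.

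**Figure D4:**
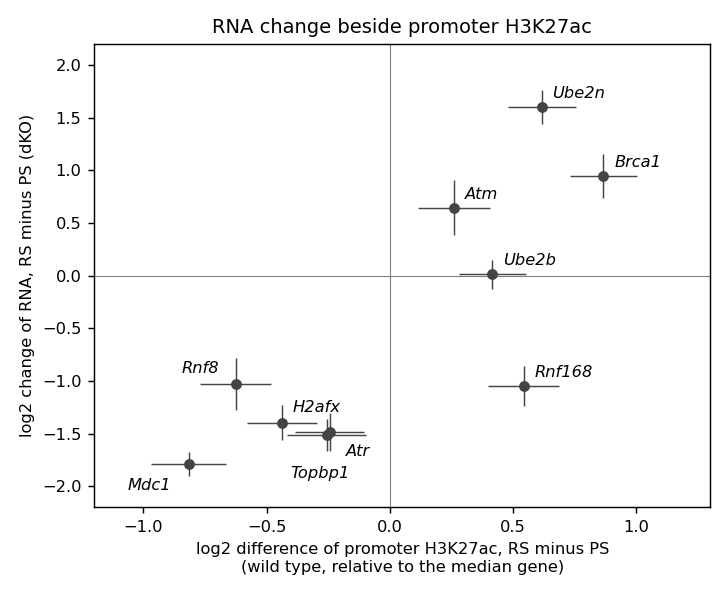
Log2 change of RNA from PS to RS in the dKO against the centered log2 difference of promoter H3K27ac from PS to RS in wild-type cells for the 10 genes, with bars of 1 SE. Rnf168 stands alone at the lower right, with RNA at -1.05 and H3K27ac at 0.54.

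The acetylated regions also differed in shape. Counts of peaks at the 10 genes were 20 and 27 in PS, against 51 and 35 in RS, counting peaks within 2 kb of the start and those assigned to the gene. The whole libraries held 41095 and 49434 peaks for the PS samples, and for the RS samples 74919 in replicate 1 and 45863 in replicate 2, so the 10 genes held 0.0487% and 0.0546% of the PS peaks and 0.0681% and 0.0763% of the RS peaks. Within 2 kb of the starts alone, the counts were 16 and 20 in PS and 13 and 19 in RS, with no excess in RS. *Ube2b* had the widest promoter peak in RS, 7006 and 6045 bases, against 3250 and 3401 in PS. In RS it reached 5501 and 4637 bases upstream of the *Ube2b* start, over the start of *Cdkl3*, which lies 3755 bases upstream on the other strand, and in PS it ended 1946 and 2000 bases upstream. *Cdkl3* RNA was 100 and 99.6 RPKM in PS and 181 and 171 in RS (log2 change 0.84 ± 0.12, edgeR adjusted p = 3.51e-04). The promoter peaks of *Rnf168* and *Brca1* were also wider in both RS libraries. At *Rnf168* the widths were 5522 and 3945 bases against 3111 and 3031, and at *Brca1* 5337 and 4230 against 3359 and 3251. How many of all start peaks widened in this way was not counted. The start peaks of the 10 genes had median widths of 2782.5 and 2982.5 bases in PS and 5191.5 and 2258.5 in RS. Over the 8659 genes with a start peak in all libraries the medians were 1854 and 1948 in PS and 2348 and 1630 in RS, so the median width of the 10 genes was the larger one in each library.

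Beyond the start peak, *Mdc1* had peaks downstream of its start, 0 and 2 in PS against 12 and 5 in RS, of which 0 and 1 in PS and 10 and 3 in RS were in exons by the deposited annotation. They were weak, with a fold enrichment of at most 7.73. *Rnf168* had 0 and 1 intronic peaks in PS and 7 and 5 in RS, and *Ube2n* had 1 and 2 in PS and 6 and 3 in RS. *Rnf8* went the other way, with 4 and 3 intronic peaks in PS and 0 and 2 in RS, where in RS replicate 1 a single start peak of 5046 bases covered much of the same stretch. Both RS libraries thus had more peaks within *Mdc1*, *Rnf168* and *Ube2n* than either PS library, which was not so for the other members. How many of all genes show this pattern was not counted, and RS replicate 1 had the most peaks of any library, 74919. At a -log10 p of at least 5 the pattern did not hold for *Mdc1*, with 0 and 1 downstream peaks in PS and 9 and 1 in RS. At that threshold *Rnf168* had 0 and 1 in PS and 5 and 3 in RS, and *Ube2n* had 0 and 1 in PS and 3 and 3 in RS. *Brca1* then also had more in RS, with 0 and 0 in PS and 1 and 1 in RS.

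**Figure D5:**
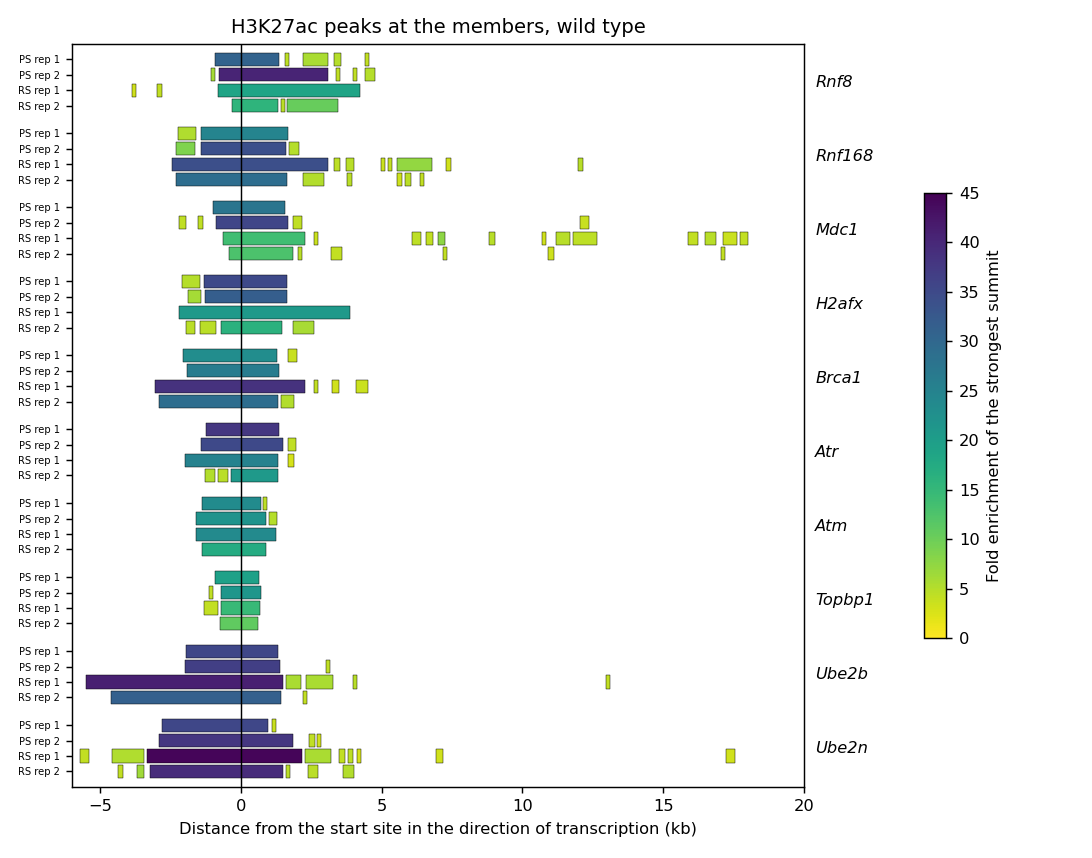
H3K27ac peaks of the 10 genes in the 4 wild-type libraries (replicates 1 and 2 of PS, then of RS, from top to bottom for each gene), drawn to scale by distance from the start site in kb in the direction of transcription, from 6 kb upstream to 20 kb downstream, with the color giving the fold enrichment of the strongest summit. The Ube2b start peak extends upstream in both RS libraries, and weak peaks lie along Mdc1 in RS.

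The strongest summit lay downstream of the start in all 4 libraries for 8 of the 10 genes, and upstream for *Brca1* and *Atm*, whose starts are shared with a divergent neighbor. The share of all genes with a downstream summit was not counted. At *Brca1* the summit was 1066, 1067, 417 and 1036 bases upstream in PS replicates 1 and 2 and RS replicates 1 and 2, on the side of *Nbr1*, an autophagy receptor gene that starts 152 bases away. *Nbr1* RNA was 25.1 and 25.8 RPKM in PS and 189 and 184 in RS, a log2 change of 2.93 ± 0.12 (edgeR adjusted p = 3.29e-06), so it rose more than *Brca1*. At *Atm* the summit was 594, 637, 723 and 595 bases upstream, on the side of *Npat*, a histone gene activator that starts 376 bases away. *Npat* RNA was 6.11 and 5.42 RPKM in PS and 5.47 and 5.57 in RS (log2 change -0.02 ± 0.15, edgeR adjusted p = 0.904). The same peak gives the H3K27ac value of both neighbors, so it cannot be told apart which of them it belongs to. *Atr* also has a divergent neighbor, *1700065D16Rik*, which starts 80 bases away and overlaps the start of *Atr* in another isoform, but its summits lay 506 to 600 bases inside *Atr*. That neighbor had 37 to 108 reads, few beside those of *Atr*.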

How the data were processed

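The samples were 4 ChIP-seq libraries (H3K27ac, wild-type) and 4 RNA-seq libraries (dKO), 2 for each stage, with groups and replicate numbers from the sample labels. The 10 genes, the pathway lists and the tests were chosen with earlier results of these data known.

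For RNA-seq, RNA was amplified before library construction. The authors deposited read counts per RefSeq row, not normalized, and RPKM, scaled by transcript length and library size. Reads were aligned by the authors to mm10 with STAR 2.4.2a, keeping unique alignments with at most 2 mismatches, and reads of isoforms were estimated by expectation-maximization. For ChIP-seq, per the submitters' processing notes, Bowtie 1.1.1 and MACS2 2.1.0.20140616 were used, and peaks were called in each library without pooling. The paper's methods name other versions of these tools. The authors deposited the pileup signal of fragments at each summit, its fold enrichment as a ratio over the background of the library, and -log10 p and q values, the lowest -log10 q being 1.38 to 1.97. Each pileup value of a library had a single fold enrichment, and read totals were not given in the sources used here.

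Rows were summed to 23343 genes. RS and PS were compared with edgeR 4.0.16 (quasi-likelihood test, TMM) for the 14647 genes that reached 10 counts in 2 or more libraries, and the SE was taken as the log2 change divided by the square root of F. Promoter H3K27ac was compared with limma 3.58.1 (trend) on log2 fold enrichment for 11394 genes with a peak within 2 kb of a start in all 4 libraries. P-values were adjusted by Benjamini-Hochberg over all genes tested. Replicates of the RNA groups differed by more than sampling noise (chi-square per degree of freedom 9.35 in PS and 5.94 in RS). The genes named were the 10 members, *Scml2*, and from each list the 3 called genes with the largest fold in each direction; neighbors at the start sites, and other genes named beside a member, were chosen after their values were seen. *Hist1h2aa* and *Brcc3*, with *Fancb*, did not pass the count filter. Alternatives included DESeq2 1.42.0, other filters, pseudocounts of 1 and 0.1 on RPKM, other windows and scalings, a replicate block, and the omission of each library. Protein sequences were not used here. Scripts ran in R 4.3.3 and Python 3.11.15 and were tested on simulated data.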

Additional observations from a re-analysis of the deposited data

How the results depend on the processing

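In the RNA comparison the counts over all genes ranged from 3127 to 4812 higher and from 2910 to 4696 lower over all settings, and those of the 10 genes were 2 or 3 higher and 5 or 6 lower. *Atm* passed the threshold with DESeq2 (log2 change 0.66, adjusted p = 0.0351), with no filter on low counts (0.64, edgeR adjusted p = 0.0232) and without PS replicate 1 (1.13, edgeR adjusted p = 2.31e-04). The log2 change of *Ube2b* was -0.033 without TMM, -0.023 with limma on log2(RPKM + 1), -0.023 on log2(RPKM + 0.1) and -0.077 to 0.155 when each library was left out, lowest without PS replicate 2. That of *Scml2* was 0.77 without PS replicate 2, 0.62 without RS replicate 1 and -0.77 without RS replicate 2. With no minimum fold, 2 opposing deubiquitinases were lower. Leaving out each library gave 3 to 11 lower genes of the ATM and ATR checkpoint and 1 to 2 higher genes of BRCA and Fanconi repair. *Ube2d3* was under 1.5-fold in 5 settings, with an adjusted p under 0.05 in each.

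With H3K27ac as deposited, 944 of all promoters were higher and 3848 lower, 0 of the 10 were higher and 5 lower, and the log2 difference was -0.16 at *Atm* and -0.0065 at *Ube2b*. Leaving out each library gave 1416 to 2290 lower promoters, and 1 to 4 higher and 2 to 3 lower among the 10. With peaks within 2 kb of a start alone, the 10 genes had 16 and 20 peaks in the PS libraries, and 13 and 19 in the RS libraries. With a -log10 p of at least 5, RS replicate 1 had 37. The use of the strongest summit within 2 kb was added after seeing the data. The cause of these changes was not tested.

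The groups share replicate numbers. The study's small-scale separation gave dKO PS and RS from the same mouse, but its sources do not say that a number marks that mouse. Deviations of same-numbered samples correlated across genes at 0.225 in RNA and 0.0097 in H3K27ac. With the replicate block, 4589 genes were higher and 4134 lower in RNA, 2605 and 2364 in H3K27ac, and the 10 genes differed in 1 RNA call, *Atm* (log2 change 0.69, edgeR adjusted p = 0.0170). Of 200 counts computed under another setting, 183 stayed within 1.5 times the reported one. Few reads limit *Rnf8*, *Scml2* and *Hus1b*.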
